A study of Homo sapiens with 9 samples.

Results

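The 10 genes of endoplasmic reticulum (ER) protein folding and of the unfolded protein response described here were chosen by name: HSPA5, HSP90B1, HYOU1, PDIA4, PDIA6, CALR, CANX, HERPUD1, SEL1L and XBP1. Of these 10 genes, 9 had rows in the deposited table of 28717 gene identifiers, and all 9 were among the 9947 genes with enough signal to be tested. The expression of PDIA6 was not analysed here, and only its promoter sequence is described. The 9 genes were represented by 58 of the 90652 listed transcripts, and 51 of the 58 were among the 22618 transcripts tested. RNA sequencing had been done on SNU16 cells, an established human gastric carcinoma line labelled as wild type, in 9 libraries. Untreated cells (control) were compared with cells given 7.69 µM 5-fluorouracil (5-FU), an antimetabolite that inhibits thymidylate synthase, and with cells given 80 µM hydrogen peroxide (H2O2), an oxidant. Each group had 3 libraries, all labelled 24 h.

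The ER folds secreted and membrane proteins, and its chaperones bind unfolded chains, form disulfide bonds and hold glycoproteins until they are mature. When unfolded proteins build up, the sensors IRE1, PERK and ATF6 start the unfolded protein response: IRE1 removes a short intron from XBP1 mRNA, PERK slows translation, and ATF6 is cleaved to a transcription factor. Spliced XBP1 and ATF6 act on promoters of ER chaperone genes through the ER stress response elements ERSE and ERSE-II.

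Neither treatment moved any of the 9 genes past the threshold, which was a limma p under 0.05 after Benjamini-Hochberg adjustment over all genes tested. The nearest was HSP90B1, whose 3 values in 5-FU lay below all 3 controls. In 5-FU, 7 of the 9 genes had a lower mean on the log2 scale than in control, and in H2O2 4 of the 9 did. Differences are given as log2(FPKM + 0.5), a scale that understates changes of genes with low values. FPKM are fragment numbers scaled to transcript length and to the size of the library.

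Few of the listed transcripts could be identified as messenger RNAs of these genes. By the GENCODE V29 annotation, 27 of the 58 transcripts were retained-intron models, 2 were protein-coding and 1 was a nonsense-mediated decay model. The other 28, including all 12 of HSPA5, were not in V29 and have no class here. A value under a gene symbol is therefore the sum of the listed models, 1 to 17 per gene, and not a measure of the whole gene. The same limit holds for the other genes tested, because V29 classed 322 of the 90652 listed transcripts as protein-coding and 27758 as retained-intron models. Long intergenic non-coding transcripts numbered 14192 and antisense transcripts 11377, and 32431 were not in V29. Retained-intron models share exons with the mRNA.

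The promoters were searched for the elements through which the unfolded protein response acts on these genes. RefSeq windows (GRCh38.p14) of 300 bases, from 250 bases before to 50 after an annotated start site, were available for all 10 genes, 16 windows in all. ERSE was searched as CCAAT and CCACG with any 9 bases between them, ERSE-II as ATTGG and CCACG with any 1 base between them, and the unfolded protein response element (UPRE) core as TGACGTGG, on both strands. ERSE occurred in 6 of the 10 genes, against 25 of 27305 genes with a window (0.0916%). ERSE-II occurred in 2 of the 10, HERPUD1 and HYOU1, against 19 genes in all (0.0696%), and UPRE in 1, HYOU1, against 253 (0.927%). The windows of PDIA4 and SEL1L held none of these exact letters. The genes were chosen by name as genes of this response, so these shares are a description and not a test of enrichment. Such a match describes the sequence and is not evidence that a factor was bound in these cells.

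HSPA5 and HSP90B1 are the most abundant chaperones of the set, and the 250 bases before their start sites are shown to place the elements. Capitals mark ERSE in all lines, written on the strand of the gene, so an element on the opposite strand appears as its reverse complement. HSPA5 (chr9:125241344-125241593, minus strand) held 1 ERSE at position -66 from the start site. HSP90B1 (chr12:103930160-103930409, plus strand) held 2, at -194 on its own strand and at -89 on the opposite strand.
HSPA5: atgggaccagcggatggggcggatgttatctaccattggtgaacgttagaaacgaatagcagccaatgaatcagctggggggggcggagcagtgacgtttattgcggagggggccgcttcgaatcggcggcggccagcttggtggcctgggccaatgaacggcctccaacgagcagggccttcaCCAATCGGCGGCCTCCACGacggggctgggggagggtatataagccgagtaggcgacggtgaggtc
HSP90B1: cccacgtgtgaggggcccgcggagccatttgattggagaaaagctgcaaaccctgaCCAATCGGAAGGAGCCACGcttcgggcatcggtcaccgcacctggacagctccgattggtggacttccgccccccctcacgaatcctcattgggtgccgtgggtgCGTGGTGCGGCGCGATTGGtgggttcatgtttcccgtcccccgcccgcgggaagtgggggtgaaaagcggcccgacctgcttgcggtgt

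The remaining genes with an ERSE or ERSE-II are shown with 20 bases on each side, to compare the letters of the element between genes. ERSE is in capitals in CALR (chr19:12938364-12938422, plus strand, element on the opposite strand), CANX (chr5:179698758-179698816, plus strand), PDIA6 (chr2:10812833-10812891, minus strand) and XBP1 (chr22:28800583-28800641, minus strand). ERSE-II is in capitals in HERPUD1 (chr16:56932005-56932055, plus strand) and at 2 sites of HYOU1 (chr11:119057360-119057410 and chr11:119057254-119057304, minus strand, both elements on the opposite strand). The UPRE of HYOU1, at -188, overlapped its ERSE-II at -185. CANX had several annotated starts, and its element lay at -189 from the one used here.
CALR: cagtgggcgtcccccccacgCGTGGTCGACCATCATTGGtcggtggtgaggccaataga
CANX: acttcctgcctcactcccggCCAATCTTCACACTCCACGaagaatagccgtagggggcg
PDIA6: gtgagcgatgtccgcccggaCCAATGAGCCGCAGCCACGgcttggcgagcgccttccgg
XBP1: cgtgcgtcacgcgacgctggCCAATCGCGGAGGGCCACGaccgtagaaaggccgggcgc
HERPUD1: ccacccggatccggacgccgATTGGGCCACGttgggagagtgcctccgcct
HYOU1 far site: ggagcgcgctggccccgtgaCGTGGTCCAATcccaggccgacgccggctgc
HYOU1 near site: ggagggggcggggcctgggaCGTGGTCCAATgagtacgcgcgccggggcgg

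**Figure D1:**
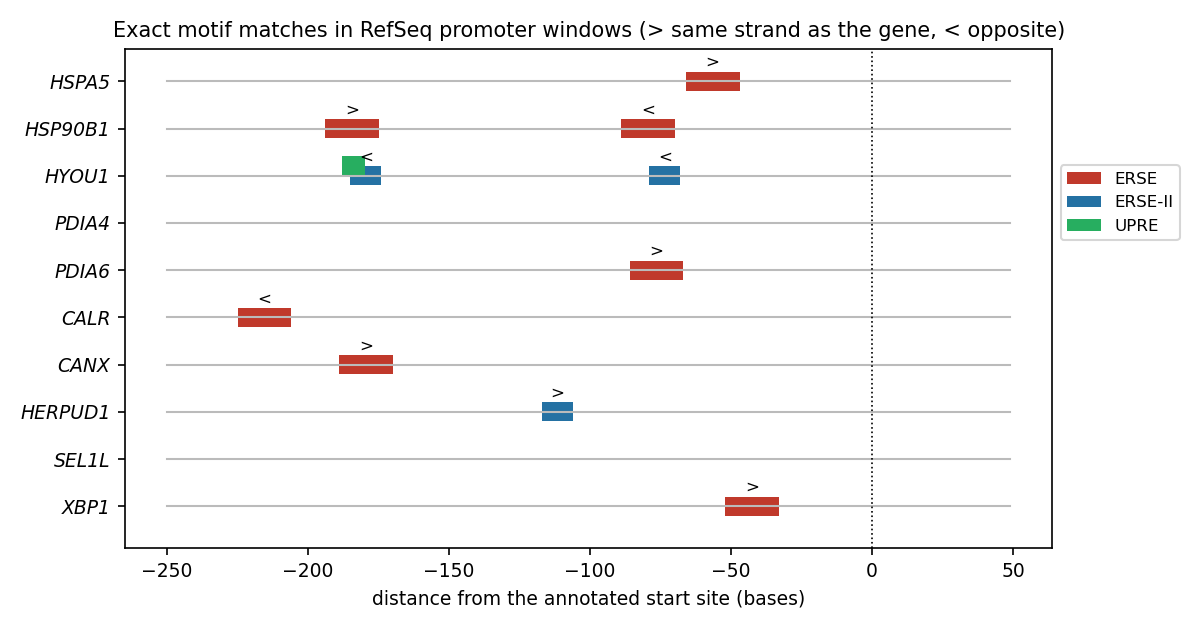
Exact matches of ERSE, ERSE-II and UPRE (coloured boxes) in 1 RefSeq promoter window of each of the 10 genes, against the distance from the annotated start site in bases; arrowheads give the strand. Matches lie upstream of the start site in 8 genes, with the windows of PDIA4 and SEL1L empty.

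The libraries were checked before the genes were compared. Depth is unknown, because the files hold FPKM with values down to 1e-06, and library totals of listed FPKM ran from 56096.4 to 60642.1. On the first principal component over all genes tested, which held 21.2% of the variance, controls lay at -18.7 to -18.1, 5-FU libraries at 12.5 to 33.3 and H2O2 libraries at -9.1 to 8.5. Replicate 3 of 5-FU stood apart on it, at 33.3 against 12.5 and 15.8, and replicate 3 of H2O2 stood apart on the second component, at -41.9 against -3.4 and -2.4. Differences from control that depend on these 2 libraries are also given without them. All 5 epithelial markers were listed, and their summed FPKM was 294 to 383 in untreated cells, 181 to 239 after 5-FU and 263 to 408 after H2O2. The lower sums in 5-FU came mostly from KRT8, at 260, 261 and 161 FPKM in untreated cells and 110, 81.9 and 118 after 5-FU. KRT19 was also lower without overlap, at 23.8, 22.6 and 18.7 FPKM in untreated cells and 17.4, 12.6 and 11.5 after 5-FU. EPCAM, CDH1 and KRT18 overlapped between these groups. The part of this in the results was not tested. The leukocyte gene PTPRC, the endothelial gene VWF and the fibroblast gene COL1A2 were listed at 0 in all 9 libraries. The summed FPKM of the 3 listed fibroblast markers, of 4, was 0.336 to 0.724. Of the leukocyte markers 3 of 4 were listed, and of the endothelial markers 1 of 3. Of 2 genes taken as amplified in SNU16, FGFR2 and MYC, only FGFR2 was listed, at 1.31 to 3.77 FPKM. The listed models of a marker may all be non-coding, so a low value or a 0 is not a measure of the whole gene. The labels do not state whether replicates were separate cultures, and p-values therefore reflect the spread among these libraries alone, which may be technical.

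HSP90B1 (ENSG00000166598, listed transcripts spanning GRCh38 chromosome 12, 103930356 to 103947927) encodes GRP94, the ER member of the HSP90 family, which folds integrins and Toll-like receptors. It had the highest mean of the 9 genes and ranked 49 of 9947. Replicates 1, 2 and 3 were at 99.0, 90.6 and 86.1 FPKM in untreated cells, 69.8, 68.0 and 62.7 after 5-FU and 72.6, 74.4 and 86.0 after H2O2, the order of replicates used throughout. All 6 treated libraries lay below all 3 controls, although replicate 3 of H2O2 came within 0.1 FPKM of the lowest control. The mean was 91.9 ± 6.57 FPKM in untreated cells, 66.9 ± 3.68 after 5-FU and 77.7 ± 7.27 after H2O2 (SD, n = 3 each). The log2 difference of 5-FU from control was -0.45 (SE 0.13, 95% interval -0.73 to -0.18), with an unadjusted limma p of 0.0045 and an adjusted p of 0.130. It stayed between -0.50 and -0.40 under 19 alternative settings, with limma adjusted p from 0.114 to 0.281, so it did not pass the threshold under any of them. For H2O2 the difference was -0.24 (SE 0.13, 95% interval -0.52 to 0.04, limma adjusted p = 0.599). In bulk RNA, a lower value from fewer cells of a kind and from less RNA per cell cannot be told apart.

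Single transcripts of HSP90B1 were also mostly lower in 5-FU. Of its 17 listed transcripts 12 were tested, and 9 of these had a lower mean in 5-FU, beside 45.0% of all transcripts tested. In 5 of the 12 the groups did not overlap and 5-FU was lower, beside 7.15% of all transcripts. The most abundant, HSP90B1-231, was at 35.0, 32.5 and 36.1 FPKM in untreated cells, 23.1, 29.5 and 26.1 after 5-FU and 29.9, 27.1 and 27.9 after H2O2. Both treatments lay below control without overlap, and the differences were -0.40 in 5-FU (limma adjusted p = 0.408) and -0.28 in H2O2 (limma adjusted p = 0.694). HSP90B1-206, a retained-intron model singled out after its values were seen, was at 1.98, 2.22 and 2.42 FPKM in untreated cells, 1.33, 1.13 and 0.850 after 5-FU and 2.21, 2.03 and 3.26 after H2O2. It was low in the 5-FU libraries alone, with the smallest limma adjusted p of any transcript of this gene against control (0.256). HSP90B1-216 was listed at 0 in 7 libraries and at 4.67 and 3.54 FPKM in replicate 3 of 5-FU and replicate 1 of H2O2, so its values split both treatment groups.

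HSPA5 (ENSG00000044574, chromosome 9, 125234860 to 125241382) encodes BiP, the HSP70 chaperone of the ER and a repressor of the 3 stress sensors. It was at 79.4, 77.0 and 77.8 FPKM in untreated cells, 60.1, 99.5 and 49.6 after 5-FU and 73.5, 74.4 and 51.8 after H2O2. The controls were close together, with a coefficient of variation of 1.60% against a median of 21.6% over all genes, while the 5-FU libraries spread on both sides of them (37.7%). HSPA5 ranked 58 of 9947 genes by mean level, and the median over all genes is not matched for level. All 3 H2O2 values lay below control. The differences were -0.22 in 5-FU (SE 0.24, 95% interval -0.76 to 0.31, limma adjusted p = 0.709) and -0.25 in H2O2 (SE 0.24, 95% interval -0.78 to 0.28, limma adjusted p = 0.784). The 5-FU difference was -0.51 without replicate 2 of 5-FU and -0.01 without replicate 3, and the H2O2 difference was -0.078 without replicate 3 of H2O2.

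The high HSPA5 value of 5-FU replicate 2 came from 2 of the 12 models. HSPA5-214, the most abundant model by its mean, was at 51.2 FPKM there and HSPA5-205 at 36.4 FPKM, against 0.748 to 15.05 and 1.47 to 3.92 FPKM in the other libraries. Together they made up 88.0% of the gene's listed FPKM in that library and 5.14% to 21.9% in the other 8. The remaining 10 models summed to 12.0 FPKM there, against 45.0 to 68.9 FPKM elsewhere. In controls these 10 summed to 64.7, 60.2 and 68.9 FPKM, and in the other 5-FU libraries to 48.8 and 47.1. Of the 12 transcripts, 11 were lower in 5-FU than in control by the mean on the log2 scale, beside 45.0% of all transcripts, and 4 were lower without overlap, beside 7.15%. Whether the shift in replicate 2 lay in the RNA or in the division of reads among overlapping models was not tested.

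HYOU1 (ENSG00000149428, chromosome 11, 119044260 to 119057202) encodes GRP170, which exchanges nucleotide on BiP. It was at 29.6, 33.6 and 27.2 FPKM in untreated cells, 36.1, 29.9 and 27.2 after 5-FU and 37.1, 37.1 and 33.8 after H2O2. The H2O2 libraries lay above control, replicate 3 by under 1 FPKM, and the 5-FU libraries overlapped both groups. The differences were 0.26 in H2O2 (SE 0.15, 95% interval -0.07 to 0.59, limma adjusted p = 0.632) and 0.04 in 5-FU (SE 0.15, 95% interval -0.29 to 0.37, limma adjusted p = 0.931). The latter was 0.13 without replicate 3 of 5-FU and -0.071 without replicate 1. HYOU1-223, its most abundant model, made up 51.4% to 66.4% of the gene in 7 libraries but 31.7% and 34.9% in replicate 3 of 5-FU and of H2O2. In those 2 libraries HYOU1-224 made up 30.8% each, so the sum over models varied less than its parts. An antisense gene overlaps HYOU1 and was listed at a mean of 3.33 FPKM. The libraries were made with a strand-marking kit. Whether the quantification used strand was not given in the sources used here, so the division of reads between the 2 genes is uncertain.

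PDIA4 (ENSG00000155660, chromosome 7, 149004199 to 149006283) encodes ERp72, a disulfide isomerase, and was the lowest of the 9 genes, at rank 6493. Its single listed model, PDIA4-203, was at 1.03, 1.25 and 1.45 FPKM in untreated cells, 1.496, 1.19 and 0.395 after 5-FU and 1.17, 1.21 and 2.12 after H2O2. The lowest and the highest value were those of the replicates numbered 3 of the 2 treatments, and all groups overlapped. The differences were -0.26 in 5-FU (SE 0.31, limma adjusted p = 0.742) and 0.17 in H2O2 (SE 0.31, limma adjusted p = 0.896), and without these 2 libraries they were 0.08 and -0.04, opposite in sign.

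**Figure D2:**
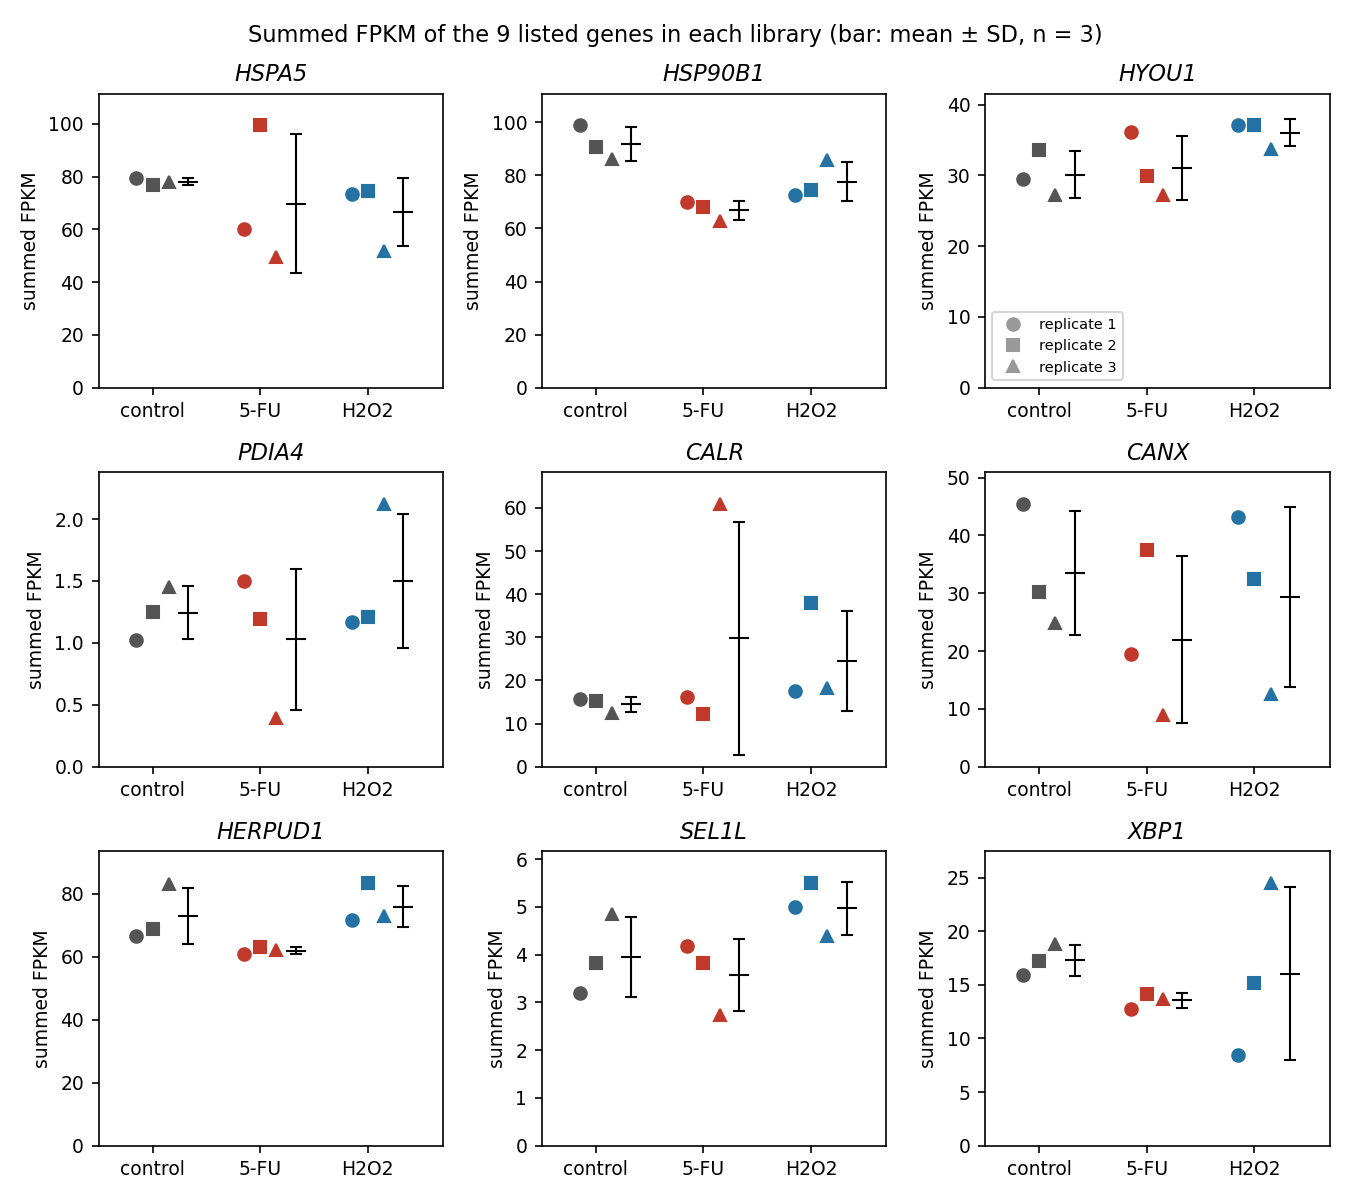
Summed FPKM (vertical axes, each from 0) of the 9 listed genes in each library by group, with symbols for the replicate and black bars for the mean ± SD of 3 libraries. HSP90B1 is below control in all 6 treated libraries, HSPA5 is spread from 49.6 to 99.5 FPKM in 5-FU, and CALR reaches 60.9 FPKM in 1 library of 5-FU.

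CALR (ENSG00000179218, chromosome 19, 12938578 to 12943962) encodes calreticulin, the soluble lectin chaperone that holds glycoproteins in the ER and binds calcium. It was at 15.7, 15.2 and 12.5 FPKM in untreated cells, 16.2, 12.1 and 60.9 after 5-FU and 17.5, 38.0 and 18.2 after H2O2. All 3 H2O2 values lay above control, and in 5-FU a single library, replicate 3, was far above the rest. The difference was 0.65 in both treatments (SE 0.51, 95% interval -0.48 to 1.79), with limma adjusted p of 0.588 in 5-FU and 0.726 in H2O2. Without replicate 3 of 5-FU the 5-FU difference was -0.04, and without replicate 2 of H2O2 the H2O2 difference was 0.30.

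The 3 CALR models behaved differently. CALR-207, the most abundant, was at 47.7 FPKM in replicate 3 of 5-FU and 19.4 FPKM in replicate 2 of H2O2, and at 3.02 to 6.62 FPKM in the other 7 libraries. It thus carried both high values of the gene. CALR-205, singled out after its values were seen, was at 4.42, 3.71 and 3.42 FPKM in untreated cells, 4.58, 3.91 and 8.40 after 5-FU and 8.14, 11.9 and 8.88 after H2O2. Each H2O2 library was above every control, with a difference of 1.21 and an unadjusted limma p of 0.0016, but the adjusted p over all transcripts was 0.498. CALR-205 is a retained-intron model by V29 that keeps intron 1 of the gene and spans 12938578 to 12940147 on chromosome 19. CALR-203 was at 3.58 to 6.70 FPKM in the 9 libraries.

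CANX (ENSG00000127022, chromosome 5, 179698923 to 179731622) encodes calnexin, the membrane-bound partner of calreticulin. It was at 45.4, 30.2 and 24.9 FPKM in untreated cells, 19.5, 37.5 and 8.95 after 5-FU and 43.1, 32.5 and 12.5 after H2O2. The lowest value of each treatment was in its replicate 3, the groups overlapped, and controls already ranged over 20 FPKM. The differences were -0.77 in 5-FU (SE 0.53, 95% interval -1.94 to 0.40, limma adjusted p = 0.519) and -0.31 in H2O2 (SE 0.53, 95% interval -1.48 to 0.86, limma adjusted p = 0.892). Without both libraries numbered 3 the H2O2 difference was 0.20, and without that of 5-FU the 5-FU difference was -0.26. The H2O2 difference was -0.070 without control replicate 1. All 5 of its transcripts were lower in 5-FU by the mean on the log2 scale, beside 45.0% of all transcripts, and in all 5 the groups overlapped. CANX-214, the most abundant, was at 20.3, 15.9 and 11.9 FPKM in untreated cells, 7.92, 16.1 and 4.02 after 5-FU and 24.8, 15.5 and 4.86 after H2O2, the same order of libraries as in the gene within each treatment.

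**Figure D3:**
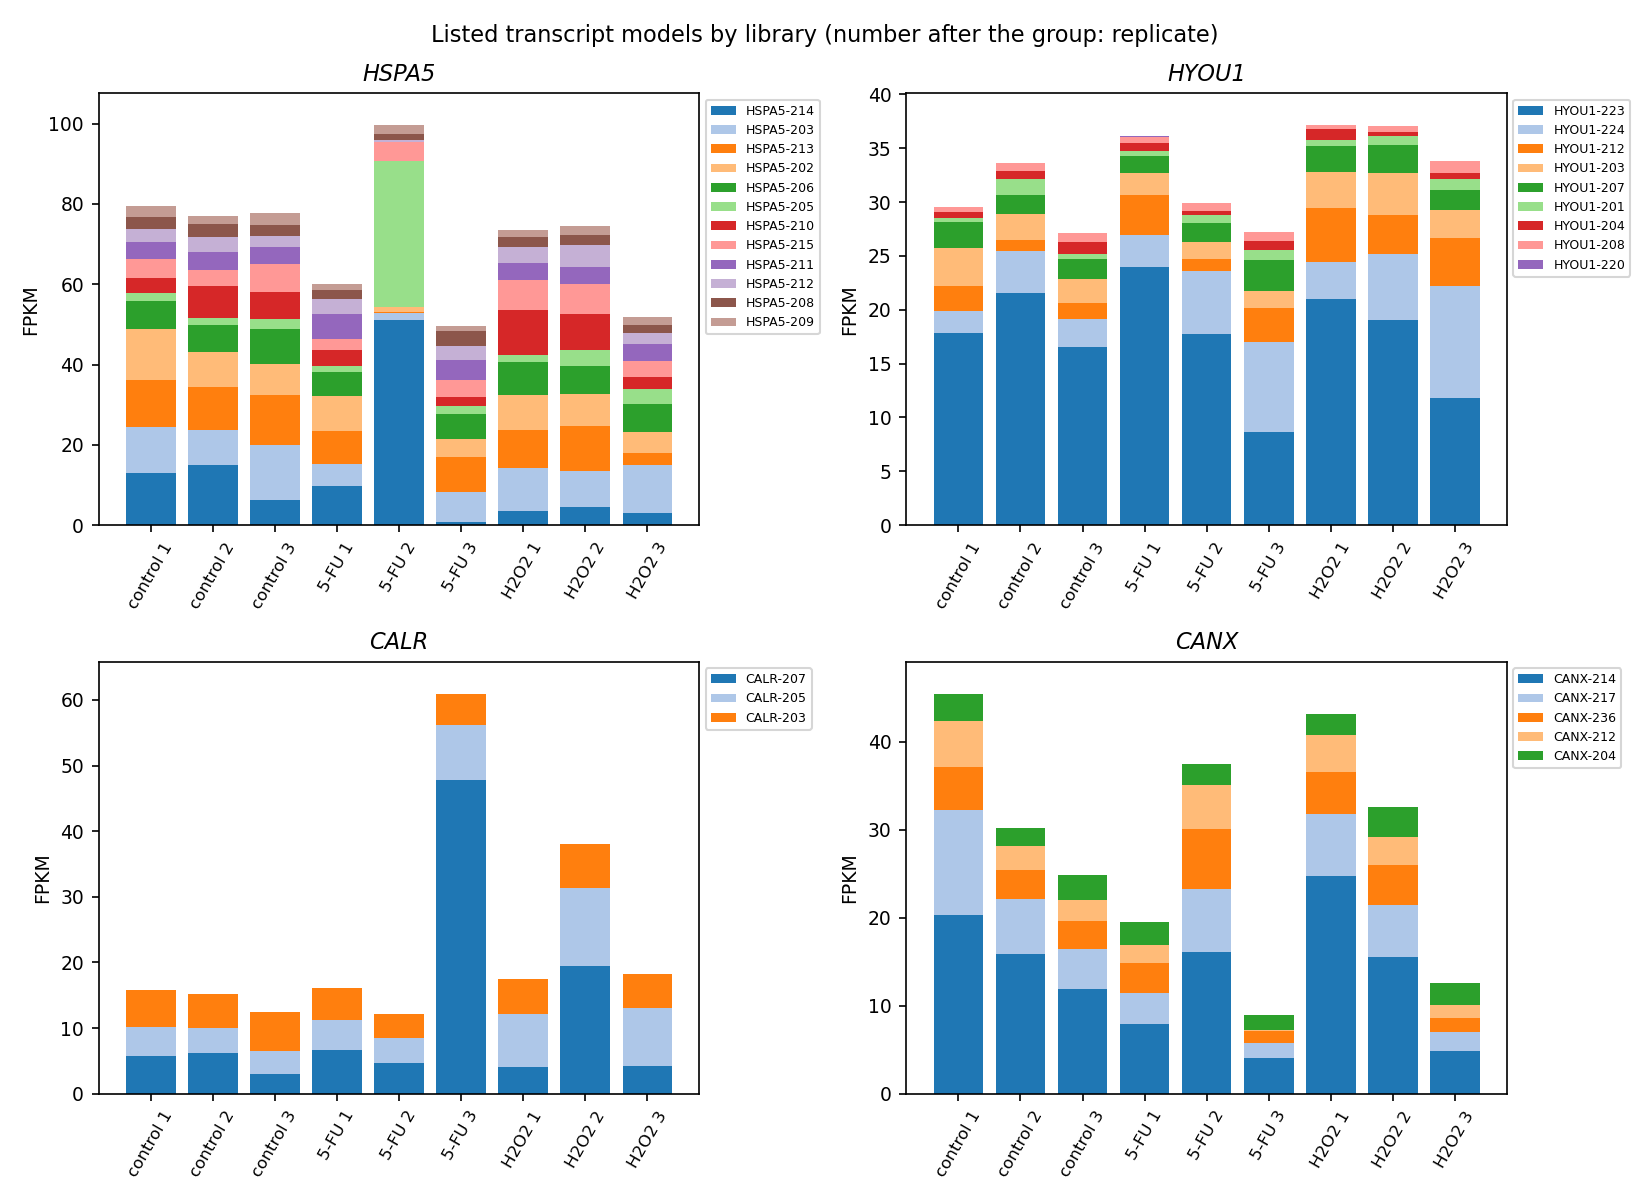
FPKM of each listed transcript model, stacked, in the 9 libraries for HSPA5, HYOU1, CALR and CANX (vertical axes from 0). HSPA5-214 and HSPA5-205 take most of HSPA5 in replicate 2 of 5-FU, and CALR-207 takes most of CALR in replicate 3 of 5-FU.

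HERPUD1 (ENSG00000051108, chromosome 16, 56932142 to 56943877) encodes a membrane protein of the ER-associated degradation machinery that supports the HRD1 ubiquitin ligase complex. It was at 66.5, 68.9 and 83.0 FPKM in untreated cells, 60.9, 62.9 and 62.0 after 5-FU and 71.5, 83.3 and 72.8 after H2O2. The 5-FU values were tightly grouped (coefficient of variation 1.66%, against a median of 23.5% over all genes) and below every other library. HERPUD1 ranked 60 of 9947 genes by mean level, and this median too is not matched for level. The differences were -0.22 in 5-FU (SE 0.13, 95% interval -0.52 to 0.07, limma adjusted p = 0.449) and 0.06 in H2O2 (SE 0.13, 95% interval -0.23 to 0.35, limma adjusted p = 0.915). Without control replicate 3, the highest control, the 5-FU difference was -0.13. All 6 transcripts were retained-intron models, and 4 had a lower mean in 5-FU, beside 45.0% of all transcripts. In 3 of the 6 the 5-FU values were lower without overlap with control, beside 7.15%. HERPUD1-209, the most abundant, was at 26.4, 29.8 and 31.3 FPKM in untreated cells, 21.0, 23.5 and 25.8 after 5-FU and 31.7, 35.6 and 27.1 after H2O2. Its 5-FU values lay below all other libraries, at a difference from control of -0.31 (limma adjusted p = 0.542). Other listed genes overlap HERPUD1, at means of 9.67 and 3.10 FPKM, and the division of reads between them is uncertain.

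SEL1L (ENSG00000071537, chromosome 14, 81479278 to 81506155) encodes the adaptor of the HRD1 ligase. It was at 3.19, 3.83 and 4.85 FPKM in untreated cells, 4.18, 3.82 and 2.74 after 5-FU and 5.00, 5.50 and 4.40 after H2O2. All H2O2 values lay above all 5-FU values, and controls overlapped both. The differences from control were -0.13 in 5-FU (SE 0.20, 95% interval -0.58 to 0.32, limma adjusted p = 0.815) and 0.31 in H2O2 (SE 0.20, 95% interval -0.14 to 0.76, limma adjusted p = 0.677). Without replicate 3 of 5-FU the 5-FU difference was 0.029, and without control replicate 1 the H2O2 difference was 0.18. SEL1L-205, its most abundant model, was at 2.04, 1.90 and 3.19 FPKM in untreated cells, 2.76, 2.20 and 1.46 after 5-FU and 3.16, 2.83 and 2.50 after H2O2, with overlap between each treatment and control.

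XBP1 (ENSG00000100219, chromosome 22, 28794559 to 28800569) encodes the transcription factor whose mRNA is spliced by IRE1. It was at 15.9, 17.2 and 18.8 FPKM in untreated cells, 12.8, 14.2 and 13.7 after 5-FU and 8.45, 15.2 and 24.5 after H2O2. The 5-FU values lay below all controls, while the H2O2 values spread from the lowest to the highest of the 9 libraries. The differences were -0.34 in 5-FU (SE 0.30, 95% interval -0.999 to 0.32, limma adjusted p = 0.635) and -0.23 in H2O2 (SE 0.30, 95% interval -0.89 to 0.44, limma adjusted p = 0.855). The H2O2 difference was 0.16 without replicate 1 of H2O2 and -0.58 without replicate 3. The most abundant model, XBP1-206, was at 13.4, 12.3 and 15.5 FPKM in untreated cells, 10.4, 11.5 and 10.3 after 5-FU and 6.12, 11.1 and 21.6 after H2O2. It followed the gene, of which it made up 79.8%.

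The intron that IRE1 removes is 26 bases long in the V29 annotation, and it is shown because the listed models cannot report on its removal. It lies at chr22:28796124-28796149 on the minus strand, in capitals within chr22:28796107-28796166 (GRCh38). Because of repeated letters at its ends, 7 placements give the same spliced sequence.
XBP1 intron: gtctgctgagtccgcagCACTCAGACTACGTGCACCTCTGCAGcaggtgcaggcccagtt
XBP1-206 contains these 26 bases and XBP1-205 does not reach them. The protein-coding V29 models without these bases, XBP1-202 and XBP1-207, were not analysed here, so no ratio of spliced to unspliced XBP1 is given.

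By the sum of listed models, per length, HSP90B1, HSPA5 and HERPUD1 had the highest means of the 9 genes in all 3 groups, and SEL1L and PDIA4 the lowest. This order depends on which models are listed. In control the order was HSP90B1, HSPA5, HERPUD1, CANX, HYOU1, XBP1, CALR, SEL1L and PDIA4, where the ranges of HSPA5 and HERPUD1 overlapped, as did those of CANX and HYOU1. In 5-FU, HSPA5, HSP90B1 and HERPUD1 overlapped in sequence at the top, at means of 69.8, 66.9 and 61.9 FPKM. In H2O2 the means of HSP90B1, HERPUD1 and HSPA5 were 77.7, 75.9 and 66.6 FPKM, again with overlap between neighbours. The sum over the 9 genes was 337 to 356 FPKM in untreated cells, 281 to 329 after 5-FU and 306 to 362 after H2O2. All 5-FU sums lay below control, and the H2O2 sums lay on both sides.

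In 5-FU against control, 0 of the 9 genes passed the threshold, beside 77 of 9947 genes (0.774%). At an unadjusted limma p under 0.05, 1 of 9 did, beside 15.5% of all genes. Groups did not overlap in 3 of the 9, all lower in 5-FU (HSP90B1, HERPUD1 and XBP1), beside 22.3% of all genes in either direction and 9.56% lower. The log2 difference was below 0 in 7 of 9, beside 46.2%, and the median was -0.22 against 0.03 over all genes. With array weights limma called 112 genes and none of the 9. Of the 51 transcripts, 0 passed the threshold, beside 1 of 22618 (0.00442%), and 11 had an unadjusted limma p under 0.05, beside 10.4%. The groups did not overlap in 15 of 51, all lower in 5-FU, beside 7.15% lower over all transcripts, and 39 of 51 were below 0, beside 45.0%. Transcripts of a gene share reads and the genes were chosen with earlier results of these data known, so these counts are a description.

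In H2O2 against control, 0 of the 9 genes passed the threshold, as did 0 of all 9947 (0%). The unadjusted limma p was under 0.05 for 0 of the 9 and for 902 of all genes (9.07%), and with array weights limma called 0 genes. Groups did not overlap in 4 of the 9, beside 15.4% of all genes, with HYOU1 and CALR higher in H2O2 (8.86% of all genes were) and HSPA5 and HSP90B1 lower (6.51%). The log2 difference was below 0 in 4 of 9, beside 46.1%, and the median was 0.06 against 0.03 over all genes. Of the 51 transcripts, 0 passed the threshold, beside 3 of 22618 (0.0133%), and 3 had an unadjusted limma p under 0.05, beside 7.6%. The groups did not overlap in 3 transcripts that were higher and 5 that were lower in H2O2, beside 8.02% and 5.72% of all transcripts, and 28 of 51 were below 0, beside 45.6%.

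The test of one treatment against the other also called 0 of the 9 genes, beside 7 of 9947 (0.0704%). At an unadjusted limma p under 0.05 there were 0 of the 9, beside 11.6% of all genes, and with array weights limma called 3 genes and 0 of the 9. Values in 5-FU lay below all values in H2O2 for HSP90B1, HERPUD1 and SEL1L, 3 of 9 beside 8.32% of all genes. HERPUD1 differed by -0.29 (SE 0.13, 95% interval -0.58 to 0.00, limma adjusted p = 0.439) and SEL1L by -0.44 (SE 0.20, 95% interval -0.89 to 0.02, limma adjusted p = 0.445), and SEL1L by -0.28 without replicate 3 of 5-FU. The log2 difference was below 0 in 8 of 9, beside 49.6%, but in 6 of 9 once both libraries numbered 3 were left out. Of the 51 transcripts, 0 passed the threshold, beside 3 of 22618 (0.0133%), and 7 had an unadjusted limma p under 0.05, beside 8.45%. Groups did not overlap in 9 of 51, all lower in 5-FU, beside 6.84%, and 41 of 51 were below 0, beside 49.3%. Both treatments were compared with the same 3 controls, so their differences from control are not independent of each other.

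**Figure D4:**
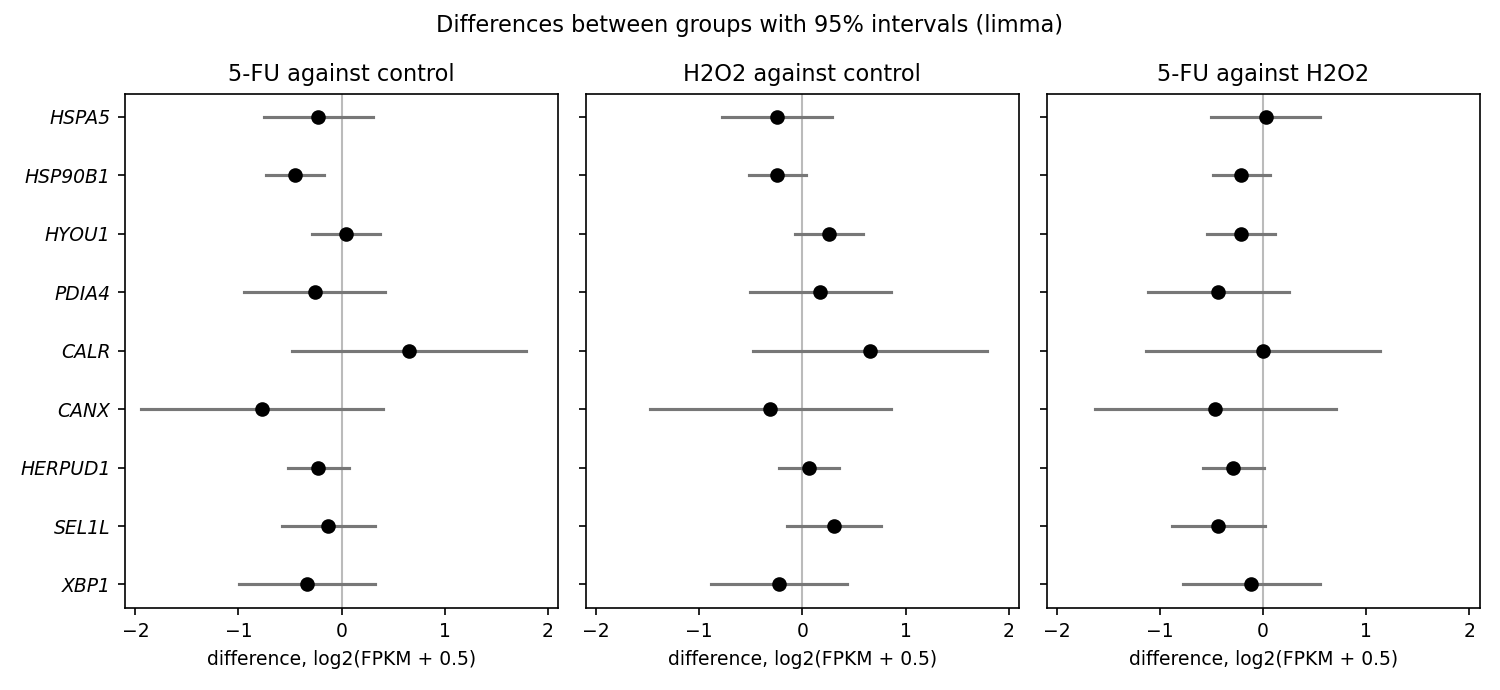
Log2 differences of the 9 genes on the log2(FPKM + 0.5) scale (points) with 95% intervals from limma (lines), for each treatment against control and for one treatment against the other. HSP90B1 in 5-FU is at -0.45 with an interval from -0.73 to -0.18, and every other interval crosses 0.

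Other genes of ER protein handling were taken by list, with 6 to 14 tested genes in each. In 5-FU 1 of these genes passed the threshold, beside 77 of all 9947 genes (0.774%). MOGS, the glucosidase that trims the first glucose from N-glycans, rose in 5-FU, with 4.13 ± 1.64 FPKM in untreated and 11.02 ± 2.21 FPKM in treated cells (SD, n = 3 each). On the log2 scale it was higher by 1.36, with an SE of 0.26 and a limma adjusted p of 0.0484. That p was 0.0366 to 0.134 under the 19 alternatives, and the call held under 4 of them but in no fit with 1 library left out. In the calnexin cycle list, 8 of 10 genes were tested, 5 higher and 3 lower in 5-FU, at a median of 0.18. PRKCSH, the beta subunit of glucosidase II, was at 11.5 ± 1.38 FPKM in untreated cells, 15.7 ± 4.17 after 5-FU and 16.5 ± 0.285 after H2O2. Its differences of 0.41 and 0.51 did not pass the threshold (limma adjusted p = 0.343 and 0.487). MAN1B1, of the same list, was at 8.22 ± 1.95, 9.22 ± 1.62 and 7.19 ± 1.87 FPKM. It differed from control by 0.16 in 5-FU and -0.19 in H2O2 (limma adjusted p = 0.787 and 0.839).

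Sensors and transcription factors of the unfolded protein response were tested for 6 of 16 listed genes, 5 higher and 1 lower in 5-FU at a median of 0.10, and 3 higher and 3 lower in H2O2. None passed the threshold. EIF2AK3, which encodes PERK, was at 6.30 ± 0.320 FPKM in untreated cells, 6.97 ± 0.702 after 5-FU and 5.998 ± 0.126 after H2O2. ATF6B, a relative of ATF6, was at 6.67 ± 0.486, 7.35 ± 1.35 and 8.07 ± 1.84 FPKM.

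Of the 16 listed disulfide enzymes 11 were tested, and 6 were higher and 5 lower in 5-FU, at a median of 0.04. In H2O2 8 were higher and 3 lower at a median of 0.04, with differences from -0.35 to 1.71, beside 46.1% of all genes lower. PDIA3, the isomerase that works with calnexin and calreticulin, was at 65.95 ± 8.97 FPKM in untreated cells, 58.0 ± 15.3 after 5-FU and 55.6 ± 13.3 after H2O2. P4HB, the founding protein disulfide isomerase, was at 44.3 ± 14.2, 50.3 ± 14.9 and 36.2 ± 13.8 FPKM. Among ER co-chaperones 10 of 12 were tested, 4 higher and 6 lower in 5-FU at a median of -0.14. PPIB, a prolyl isomerase, was at 11.2 ± 0.662, 10.5 ± 0.777 and 13.1 ± 2.95 FPKM, and DNAJC10, a BiP co-chaperone with reductase activity, at 8.40 ± 2.27, 7.61 ± 3.21 and 6.89 ± 1.18 FPKM.

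ER-associated degradation had 14 of 20 genes tested, 8 higher and 6 lower in 5-FU at a median of 0.13. AUP1, which recruits the ubiquitin conjugating enzyme UBE2G2, was at 19.6 ± 5.07 FPKM in untreated cells, 27.5 ± 7.78 after 5-FU and 32.6 ± 2.09 after H2O2, with differences of 0.47 and 0.75 that did not pass the threshold (limma adjusted p = 0.355 and 0.437). UBE2G2 itself was at 11.1 ± 1.61, 14.6 ± 1.29 and 10.8 ± 1.35 FPKM.

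The translocon and signal peptidase list had 14 of 18 genes tested, 8 higher and 6 lower in 5-FU at a median of 0.03, and its values ranged from -1.26 to 0.47. SEC61A1, the channel subunit, was at 21.8 ± 1.30 FPKM in untreated cells, 14.6 ± 1.57 after 5-FU and 15.8 ± 1.87 after H2O2, and its difference of -0.56 in 5-FU had a limma adjusted p of 0.116. SSR3, a subunit of the translocon-associated complex, was at 15.04 ± 2.24, 7.76 ± 4.39 and 19.5 ± 1.80 FPKM, with a difference of -1.03 in 5-FU (limma adjusted p = 0.141). In this list 4 of 14 genes had an unadjusted limma p under 0.05, beside the 15.5% of all genes.

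Heat shock genes of other compartments, taken for contrast, had 7 of 13 genes tested, 3 higher and 4 lower in 5-FU at a median of -0.06. HSPD1, the mitochondrial chaperonin, was at 43.7 ± 4.79 FPKM in untreated cells, 40.7 ± 4.44 after 5-FU and 42.8 ± 3.33 after H2O2. HSPA8, the constitutive cytosolic HSP70, was at 37.6 ± 3.99, 36.3 ± 18.0 and 39.8 ± 22.7 FPKM, with a wider spread in both treatments than in control.

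**Figure D5:**
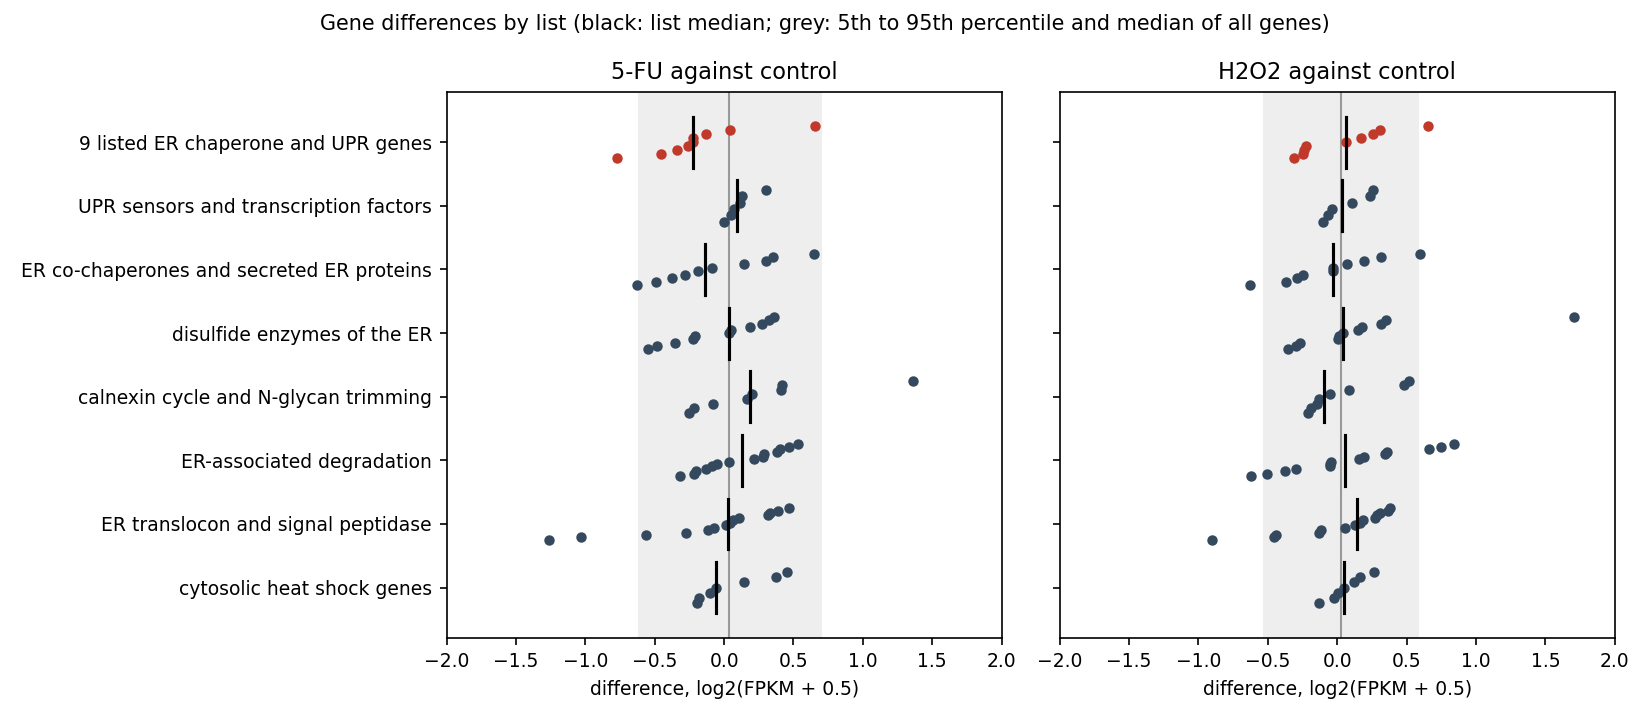
Log2 differences from control on the log2(FPKM + 0.5) scale (points, 1 per tested gene) for the 9 genes and 7 other lists in 5-FU and in H2O2, with list medians as black lines. Grey bands span the 5th to 95th percentiles of all genes tested and the grey line their median; list medians lie between -0.22 and 0.18 in 5-FU.

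Genes that carry ERSE or ERSE-II in a promoter window gave a further description of the same kind. Of 44 such genes 23 were tested, and 18 were lower and 5 higher in 5-FU, beside 46.2% of all genes tested that were lower. Their median was -0.22, against 0.03 over all genes. Leaving out the 10 genes chosen by name, 13 of the 16 others were lower, at a median of -0.23. None of the 23 passed the threshold, beside 0.774% of all genes. The 13 lower genes ran from -1.25 (NUCB1) to -0.018 (TRIM5), with CNKSR1 and RUVBL2 also near 0, at -0.040 and -0.042. The 16 include ERO1B, SDF2L1 and CRELD2, which are also in the ER lists. In H2O2, 10 of the 23 were higher and 13 lower, at a median of -0.08, beside 46.1% of all genes lower.

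The 5 genes whose levels over the 9 libraries were most like HSP90B1 were GTDC1, GP6-AS1, AP2M1, RPL37A and MIF4GD-DT. Their Pearson correlations with it, on log2(FPKM + 0.5) over 9 libraries that fall into 3 groups, were 0.954, 0.938, 0.933, 0.933 and 0.930. AP2M1, the most abundant of them, was at 30.5, 23.3 and 24.999 FPKM in untreated cells, 19.3, 16.9 and 17.7 after 5-FU and 18.8, 22.2 and 23.8 after H2O2. It was lowest in 5-FU and, like HSP90B1, was nearest to control in replicate 3 of H2O2. These genes were picked for their likeness out of all genes tested, so the correlations are a description.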

How the data were processed

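The authors deposited FPKM per transcript for 9 libraries of total RNA made with a strand-marking kit, per the labels' protocols. Tools named without a role, per the submitters' processing notes, were HISAT2 2.0.5, StringTie and edgeR 3.22.5, with GRCh38 as the build. Annotation, filters, use of strand and the version of StringTie were not given in the sources used here. FPKM were summed per gene identifier. Genes with at least 0.5 FPKM in 3 or more libraries entered limma 3.58.1 (eBayes with trend) in R 4.3.3 as log2(FPKM + 0.5), all 9 libraries in 1 fit with 6 residual degrees of freedom, two-sided, with Benjamini-Hochberg adjustment at 0.05. Single transcripts were treated alike, and the scripts were tested on simulated data. Transcript classes came from GENCODE V29. The columns of all 9 libraries were mapped, and 0 were left unmapped.

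The 10 genes and the other lists were chosen with earlier results of these data known. The text names all members, each member's most abundant transcript and called transcripts, and for other lists the called genes and the 2 most abundant. The 5 genes most like the most abundant member were named by correlation. Depth is unknown, so no counting interval is given, and the number of libraries limits the precision. Alternatives were other pseudocounts, filters, scaling, weights, a replicate block, and leaving libraries out.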

Additional observations from a re-analysis of the deposited data

How the results depend on the processing

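Under 19 alternatives, none of the 9 genes passed the threshold in any comparison, and none of their transcripts did in the 18 alternatives that were fitted for transcripts. Of 513 log2 differences recomputed, 487 kept their direction and 26 turned; the cause was not tested.

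With 1 library left out, the differences that turned ran as follows. In 5-FU against control, SEL1L ran from -0.26 to 0.029, HYOU1 from -0.071 to 0.13, PDIA4 from -0.49 to 0.084 and CALR from -0.043 to 1.10. In H2O2 against control, HERPUD1 ran from -0.0063 to 0.16, XBP1 from -0.58 to 0.16, CANX from -0.67 to 0.20 and PDIA4 from -0.038 to 0.29. In 5-FU against H2O2, HSPA5 ran from -0.26 to 0.23, XBP1 from -0.49 to 0.25, CANX from -0.98 to 0.052 and CALR from -0.70 to 0.45. Without both treatment libraries numbered 3, 5-FU against control turned to 0.029 for SEL1L, 0.084 for PDIA4 and -0.043 for CALR, H2O2 against control to 0.20 for CANX and -0.038 for PDIA4, and 5-FU against H2O2 to 0.24 for XBP1 and 0.12 for PDIA4. In the last comparison CALR turned to 0.0035 at a pseudocount of 1 and XBP1 to 0.10 with array weights.

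Counts over all genes moved more. In 5-FU against control, 77 genes were called, 48 with no filter, 21 with only the groups compared, 3 without both libraries numbered 3 and 0 to 89 with 1 library left out; members with a higher mean numbered 2, and 1 to 3 with 1 left out. Transcripts called numbered 1, against 3 at a pseudocount of 0.1, with scaling or with array weights, 0 at a pseudocount of 1 or a filter at 1 FPKM, 17 with no filter, 5 with only the groups compared, 2 without both libraries numbered 3 and 0 to 6 with 1 left out. In H2O2 against control 0 genes were called, 6 without both libraries numbered 3 and 0 to 3 with 1 left out. Its transcripts numbered 3, against 5 at a pseudocount of 0.1, 7 with no filter or array weights, 9 with only the groups compared, 11 without both libraries numbered 3 and 0 to 8 with 1 left out. In 5-FU against H2O2 7 genes were called, 0 with no filter, with only the groups compared or without assembled transcripts, 3 with array weights, 4 without both libraries numbered 3 and 0 to 4 with 1 left out. Its transcripts numbered 3, against 5 at a pseudocount of 0.1 or with only the groups compared, 0 with no filter, 1 with a filter at 1 FPKM, 6 without both libraries numbered 3 and 0 to 8 with 1 left out. Members higher in 5-FU than in H2O2 numbered 1, against 2 at a pseudocount of 1 or with array weights, 3 without both libraries numbered 3 and 1 to 2 with 1 left out.

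With the replicate number as a block, 0 genes and 0 transcripts were called in all 3 comparisons. Deviations from the group means correlated at -0.036 to 0.08 between libraries that share a number, and at -0.082 to 0.047 between the others. The highest, 0.08 and 0.062, were between 5-FU and H2O2 libraries numbered 1 and numbered 3. With 3 libraries a group, values this small cannot decide whether the numbers pair the libraries. The 3 libraries a group and the unknown depth limit which differences can be separated from the spread between libraries.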
